A study of Homo sapiens with 12 samples.

Results

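The genes described here are 33 enzymes that make the building blocks of RNA and DNA, in HEK293T cells and in R1. R1 is a clone of HEK293T that grows with homocysteine in place of methionine. The genes were picked by gene symbol, from what the enzymes are known to do. No expression value entered the rule, although earlier results of these data were known. Each symbol was matched to its entry with the highest summed count among the 23500 entries of the count table, and all 33 were found and passed the filter on low counts. They were kept in 5 groups by the step they serve, with 12 genes of de novo purine synthesis, 5 of de novo pyrimidine synthesis, 5 of deoxynucleotide synthesis, 7 of salvage and 4 nucleotide kinases. GART has a second, lower entry, which was not used.

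RNA sequencing covered 12 libraries, 3 in each of 4 groups. HEK293T cells, a line derived from human embryonic kidney that carries the SV40 large T antigen, and R1 cells were kept for 12 h in +Met medium, which holds methionine, or in -Met+Hcy medium. The latter replaces methionine with homocysteine, from which cells can make it. Both media were made from methionine-free DMEM with dialyzed serum, glutamine, cysteine and cyanocobalamin, so that the source of methionine is the difference between them. R1 is a single clone, and a difference between R1 and HEK293T cells is one between this clone and a cell population. The labels name R1 in the titles and library names, and give HEK293T as the cell line of all 12 libraries. The methods list HEK293T cells that carry a tagged PP2A catalytic subunit. Nothing states that the replicates came from separate cultures, so the p-values measure the spread between these libraries, which may be technical.

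A cell builds the purine ring step by step on phosphoribosyl pyrophosphate up to inosine monophosphate, from which the adenine and guanine nucleotides branch, while the pyrimidine ring is built first and joined to the ribose afterwards. Carbons of the purine ring and the methyl group of thymidylate come from folate carriers, and the remethylation of homocysteine to methionine draws methyl groups from the same carriers with cobalamin as cofactor. Salvage enzymes recycle free bases and nucleosides, ribonucleotide reductase turns ribonucleotides into deoxynucleotides, and nucleotide kinases add the further phosphates.

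The total count ran from 12664158 to 18771349 per library. Levels are given as CPM, the count divided by the column sum of its library and multiplied by 1000000, and fold changes come from one edgeR model of all 12 libraries with TMM scaling, with p-values adjusted by Benjamini-Hochberg over the 17162 genes tested. The scales differ, since the TMM factors were 0.828 to 0.882 in the HEK293T +Met libraries and 0.930 to 1.12 in the others, and the 100 highest genes held 25.2 to 27.2% of the counts in HEK293T +Met against 18.7 to 21.5% in HEK293T -Met+Hcy. A log2 fold change from column sums lay 0.29 above the TMM value in HEK293T cells between media and 0.35 above it in R1 against HEK293T cells in +Met, on the median of all genes. R1 -Met+Hcy replicate 3 stood apart from its group, at a chi-square per gene of 215 and 246 from the other libraries of the group, where the other pairs of replicates had 7.39 to 94.8. Over the 33 genes, its log2 ratio to the mean of the other libraries of the group fell with transcript GC content (Spearman's rho -0.80 over genes of 1 library, a description without a test). It was below -1 for 8 of the genes (lowest PFAS at -3.32 and APRT at -2.70) and above 0.5 for CMPK1, SAMHD1 and GMPS. Results are given with and without this library. Among the other pairs, R1 +Met replicate 2 was the farthest, at a chi-square per gene of 75.8 and 94.8 from replicates 1 and 3. Replicates 1 and 3 of R1 +Met had 7.39 between them. Of the markers listed for HEK293T cells, LIN28B, NEFM and VIM were detected and PAX2 was near 0 (mean 0.46 CPM in HEK293T +Met), and VIM itself stood at 699 ± 50.3 CPM in HEK293T +Met and at 337 ± 29.0 CPM in -Met+Hcy (SD, n = 3). Of 4 markers of a basal breast line, KRT5 and KRT14 had no counts in any library and KRT81 had at most 0.132 CPM, while EGFR had 4.15 ± 0.863 CPM in HEK293T +Met and 15.2 ± 6.10 CPM in R1 +Met (SD, n = 3).

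In HEK293T cells, de novo purine synthesis was the group in which most genes were lower after 12 h in -Met+Hcy. Of its 12 genes, 6 fell (PRPS1, PAICS, ATIC, IMPDH2, GMPS and ADSS2) and none rose, with a median log2 fold change of -0.85 and a range of -1.31 to 0.04. Of all 33 genes, 7 fell and 0 rose at an adjusted p under 0.05, and the median was -0.43 against 0.03 for all genes tested. Over all genes tested, 2.78% fell by the same rule, and 4.25% rose. Among the 11641 genes whose log2 CPM averaged over 2, 3.81% fell. Summed over the 12 purine genes, the level was 3324 to 3464 CPM in the +Met libraries and 2491 to 2634 CPM in -Met+Hcy, without overlap. In the plot of all 33 genes by library, PAICS, ATIC, IMPDH2, GMPS and ADSS2 are among the low values in HEK293T -Met+Hcy. So are PRPS1 and ADSL, also purine genes, and RRM2, HPRT1 and CMPK1 of other groups.

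**Figure D1:**
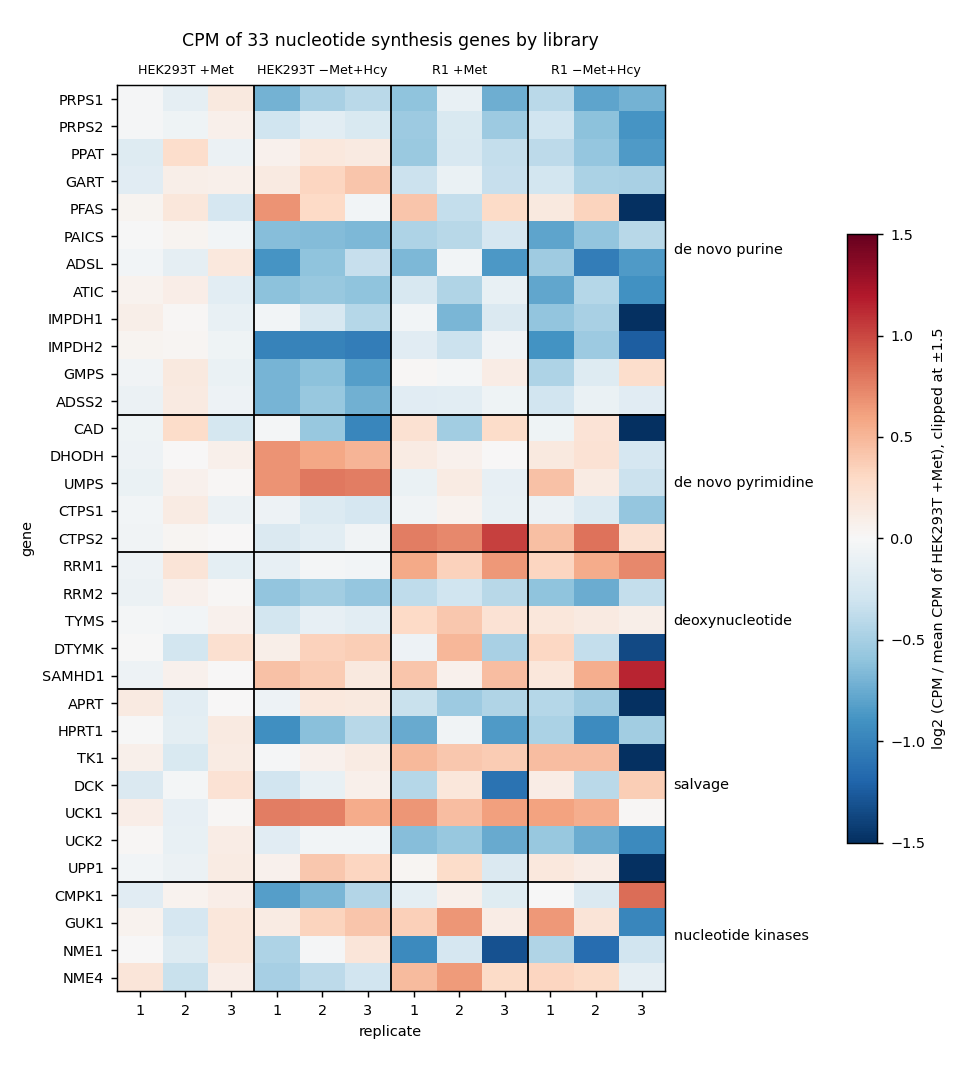
Each row is a gene, each column a library by group and replicate, and the colour is the log2 ratio of the CPM to the mean CPM of the HEK293T +Met libraries, clipped at 1.5 in both directions. The -Met+Hcy libraries of HEK293T are low (blue) for PAICS, ATIC, IMPDH2, GMPS and ADSS2, and also for PRPS1, ADSL, RRM2, HPRT1 and CMPK1. They are high (red) for DHODH, UMPS and UCK1. R1 -Met+Hcy replicate 3 is at the low end of the scale for PFAS, IMPDH1, CAD, APRT, TK1 and UPP1.

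IMPDH2 (ENSG00000178035, chr3:49024325-49029447, minus strand, GRCh38) encodes an inosine monophosphate dehydrogenase, the enzyme that commits inosine monophosphate to guanine nucleotides. It stood at 441, 434 and 407 CPM in the HEK293T +Met libraries and at 214, 213 and 208 CPM in -Met+Hcy. The groups lie far apart, and the libraries within a medium are close together. On the TMM scale it fell by 59.6%, with a log2 fold change of -1.31 ± 0.17 (SE) and an adjusted p of 0.0015 by edgeR's quasi-likelihood test. This was the largest fall among the 33 genes. GMPS (ENSG00000163655, chr3:155870650-155944020, plus strand), which makes guanosine monophosphate in the next step, had 197, 225 and 190 CPM in +Met and 126, 133 and 115 CPM in -Met+Hcy. Its media did not overlap, and on the TMM scale it fell by 50.2% (log2 fold change -1.01 ± 0.23, adjusted p 0.0214 by edgeR). IMPDH2 and GMPS were the genes among the 33 whose fall also passed an absolute log2 fold change over 1, which 1.59% of all genes tested did in this direction.

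ADSS2 (ENSG00000035687, chr1:244408494-244451909, minus strand) makes adenylosuccinate on the other branch, towards adenine nucleotides. Its levels were 117, 136 and 118 CPM in +Met and 76.7, 83.8 and 75.3 CPM in -Met+Hcy. The highest library in -Met+Hcy lay below the lowest in +Met, and the log2 fold change was -0.95 ± 0.16 (adjusted p 0.00559, edgeR). Both branches after inosine monophosphate thus held genes that fell. ADSL, the lyase that serves the ring and the adenine branch alike, had 444, 417 and 507 CPM in +Met and 246, 301 and 358 CPM in -Met+Hcy, again without overlap, but at -0.88 (95% interval -1.46 to -0.31) it did not pass (adjusted p 0.0649, edgeR).

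Of the enzymes that build the ring, PAICS (ENSG00000128050, chr4:56435741-56464578, plus strand), which carries out a carboxylation and a ligation in its middle part, had 606, 630 and 594 CPM in +Met and 393, 388 and 381 CPM in -Met+Hcy. Its groups were tight and far apart, with a log2 fold change of -0.95 ± 0.18 (adjusted p 0.0109, edgeR). ATIC (ENSG00000138363, chr2:215311956-215349773, plus strand), which closes the ring with a carbon from formyl-tetrahydrofolate, had 329, 340 and 284 CPM in +Met and 207, 215 and 210 CPM in -Met+Hcy. It fell without overlap between media (-0.88 ± 0.16, adjusted p 0.00867, edgeR). PRPS1 (ENSG00000147224, chrX:107628428-107651993, plus strand) supplies the phosphoribosyl pyrophosphate on which the ring is built. It had 380, 351 and 426 CPM in +Met and 236, 275 and 291 CPM in -Met+Hcy, and its fall (-0.82 ± 0.22) passed narrowly (adjusted p 0.0444, edgeR).

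The other genes of the ring did not pass the test. PPAT, whose product catalyses the committed step, had 90.6, 125 and 97.9 CPM in +Met and 109, 116 and 114 CPM in -Met+Hcy, so that the media overlapped (log2 fold change -0.18, 95% interval -0.55 to 0.20). GART, which acts at several steps and uses formyl-tetrahydrofolate, had a log2 fold change of 0.01 (-0.37 to 0.39), and PFAS, which makes formylglycinamidine ribotide, one of 0.04 (-1.13 to 1.21). From column sums PPAT stood at 0.11, so that its sign depends on the scale, GART at 0.30 and PFAS at 0.34. PRPS2 (-0.52, adjusted p 0.104) and IMPDH1 (-0.53, adjusted p 0.340), the paralogs of PRPS1 and IMPDH2, did not pass edgeR's test either. Both were lower without R1 -Met+Hcy replicate 3 (adjusted p 0.0193 and 0.0231, edgeR) and with GC and length trends removed (0.0407 and 0.0376), and PRPS2 by DESeq2 (0.0316). ADSL was lower in each of these settings too (adjusted p 0.0132 to 0.0187).

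IMPDH2 and ADSS2 passed in each of 12 fits that left out 1 library. Without HEK293T -Met+Hcy replicate 2, only these 2 of the 7 genes passed (ATIC then had an adjusted p of 0.0559), while PAICS was lost in 3 of the 12 fits, GMPS and RRM2 in 6 and PRPS1 in 8. Without R1 -Met+Hcy replicate 3 the common dispersion was 0.0349 in place of 0.109, 17 of the 33 genes were lower and 2 higher, and over all genes 12.5% were lower and 15.2% higher; in de novo purine synthesis 9 of 12 were then lower. With GC and length trends removed, 16 of the 33 were lower (9.3% of all genes), and in the HEK293T libraries alone 17 were lower and UMPS and UCK1 higher (15.5% and 18.6% of all genes). By DESeq2 14 were lower (5.52%). From column sums, 6 of the 33 were lower (5 of them in de novo purine synthesis) and UMPS and UCK1 higher, against 1.24% lower and 10.5% higher over all genes.

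**Figure D2:**
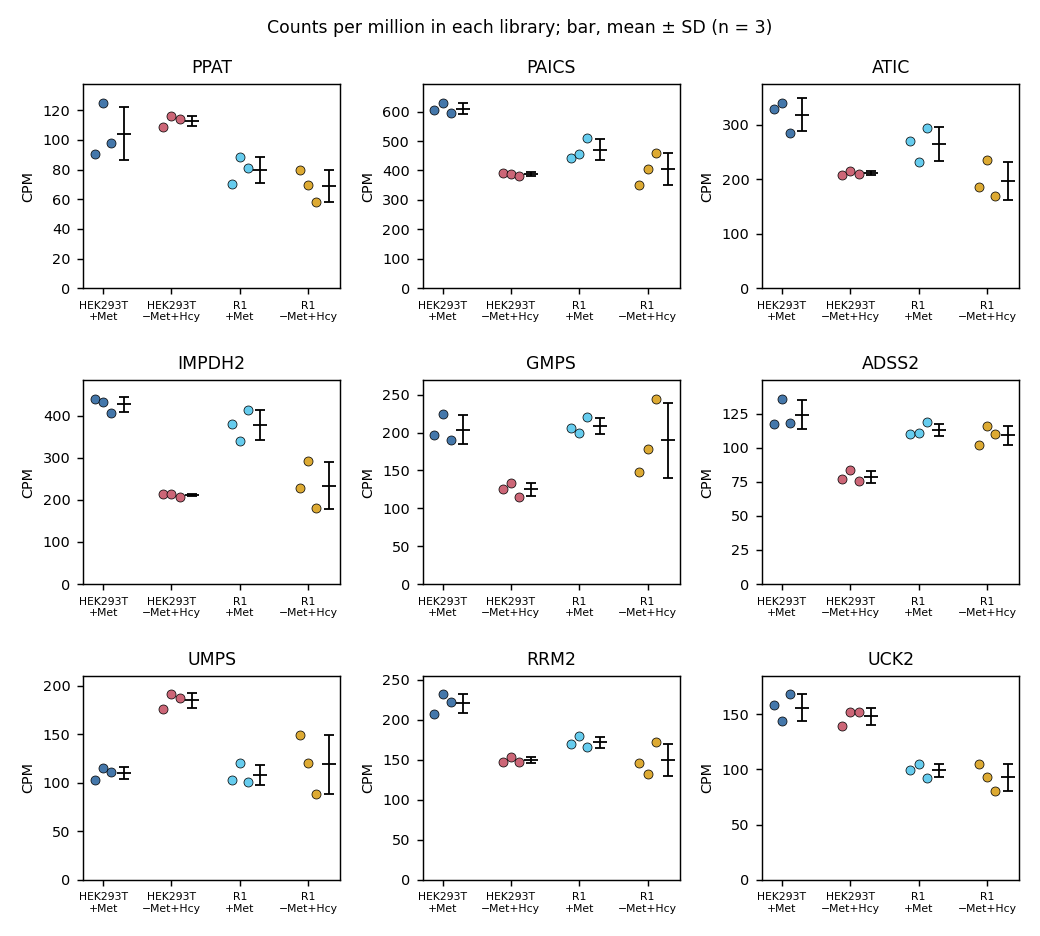
CPM in each of the 12 libraries for 9 genes, in 4 groups, with the mean and SD (n = 3) beside the points; each axis starts at 0. In HEK293T cells the points of -Met+Hcy lie below those of +Met for PAICS, ATIC, IMPDH2, GMPS, ADSS2 and RRM2, above them for UMPS and among them for PPAT. The R1 points of both media overlap for PAICS, GMPS and ADSS2 and are apart for IMPDH2.

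PPAT and PAICS lie head to head on chromosome 4 and are transcribed away from each other. Between the RefSeq starts of PPAT (base 56435615) and PAICS (base 56435752) lie 136 bases, shown here because PAICS fell in HEK293T cells while PPAT, on the other side of the same stretch, did not pass the test. The first of the next 2 sequences is that stretch on the plus strand of GRCh38.p14, with PPAT to its left and PAICS to its right. The second holds, in capitals, the E-box CACGTG, the core site of MYC and related factors, whose first base lies 40 bases after the PAICS start and which also falls in the 250 bases before the PPAT start.

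Between PPAT and PAICS, chr4:56435616-56435751: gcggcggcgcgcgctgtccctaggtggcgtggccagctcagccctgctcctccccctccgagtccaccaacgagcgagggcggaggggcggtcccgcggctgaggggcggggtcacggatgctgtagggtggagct
E-box after the PAICS start, chr4:56435780-56435809: ctgtatttgctgCACGTGgaaatctccgtt

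The counts of PAICS were 6.69, 5.06 and 6.07 times those of PPAT in the HEK293T +Met libraries and 3.60, 3.36 and 3.35 times in -Met+Hcy, a ratio looked at after the data were seen. In R1 cells it was 6.30, 5.17 and 6.33 in +Met and 4.43, 5.84 and 7.92 in -Met+Hcy. The ratio needs no scaling between libraries. Its values in HEK293T cells in -Met+Hcy are the lowest of the 12, and the R1 media overlap.

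The promoters of 31 of the 33 genes were matched in the RefSeq sequences of GRCh38.p14 (ADSL and IMPDH2 were not). CACGTG lay in the 250 bases before a start for 4 of the 31 (ATIC, DCK, DHODH and PPAT; 12.9%), against 7.73% of all 27305 genes with such a window, on either strand. The E-box of ATIC, a gene that fell in HEK293T cells, is given in capitals in the first of the next 2 sequences. The other sequence is the 250 bases before the start of CAD, the first enzyme of pyrimidine synthesis. These bases hold none of the 6 motifs searched, as is so for most of the 31 genes. Bases after a start were not searched for these counts, those of CAD included. TTTCCCGC, a form of the E2F site, was found for PRPS2 and TYMS (1.70% of all genes), TTTGGCGC, another form, for GART (0.681%), and GCGCATGC, found in NRF1 sites, for UCK1 (3.22%). TGATGCAA and TGATGAAA, forms of the site of ATF4 and C/EBP factors, were found for none of the 31 and for 0.967% and 1.15% of all genes. These are matches of letters only.

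E-box before the ATIC start, chr2:215312001-215312030: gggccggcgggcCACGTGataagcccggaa
Before the CAD start, chr2:27217119-27217368: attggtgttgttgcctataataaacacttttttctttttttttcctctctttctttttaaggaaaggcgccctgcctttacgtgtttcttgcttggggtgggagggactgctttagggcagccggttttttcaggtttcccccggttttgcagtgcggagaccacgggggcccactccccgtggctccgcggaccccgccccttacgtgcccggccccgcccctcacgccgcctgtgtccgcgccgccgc

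De novo pyrimidine synthesis gave no gene past the test in HEK293T cells (0 of 5 by edgeR, 3 at an unadjusted p under 0.05, which 9.49% of all genes passed as lower and 12.9% as higher, and CTPS1 alone by DESeq2, where 5.52% of all genes were lower), and its genes had estimates of both signs. CAD, whose product carries out the opening steps, had 157, 198 and 137 CPM in +Met and 161, 111 and 83.4 CPM in -Met+Hcy. The media overlapped, and the log2 fold change was -0.77 with a wide interval (-1.59 to 0.04). UMPS, which makes uridine monophosphate in the last steps, had 103, 115 and 111 CPM in +Met and 176, 191 and 187 CPM in -Met+Hcy. All -Met+Hcy libraries were higher, but on the TMM scale the log2 fold change was 0.46 (0.08 to 0.84, adjusted p 0.144 by edgeR) and passed without R1 -Met+Hcy replicate 3 (adjusted p 0.0265), in the HEK293T libraries alone (0.0157) and from column sums (0.75, adjusted p 0.0257). DHODH, the dehydrogenase of the inner mitochondrial membrane between them, had 10.8, 11.4 and 12.0 CPM in +Met and 18.2, 17.1 and 16.2 CPM in -Met+Hcy, which is 0.29 on the log2 scale after TMM (-0.09 to 0.68, adjusted p 0.359 by edgeR). CTPS1 and CTPS2, the synthetases that turn uridine into cytidine triphosphate, had estimates of -0.47 (adjusted p 0.0859) and -0.43 (adjusted p 0.171). Without R1 -Met+Hcy replicate 3, CAD (adjusted p 0.0276), CTPS1 (0.0122) and CTPS2 (0.0371) were lower by edgeR, and so they were with GC and length trends removed (0.000937, 0.00283 and 0.0221).

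Of the 5 genes of deoxynucleotide synthesis, 1 fell in HEK293T cells. RRM2 (ENSG00000171848, chr2:10120698-10211725, plus strand), the small subunit of ribonucleotide reductase that is made in S phase, had 208, 232 and 223 CPM in +Met and 147, 154 and 148 CPM in -Met+Hcy. The media did not overlap, and the log2 fold change was -0.85 ± 0.19 (adjusted p 0.0184, edgeR). RRM1, the large subunit, had 256, 308 and 243 CPM in +Met and 247, 264 and 262 CPM in -Met+Hcy, with overlap (-0.35, -0.76 to 0.07). Thymidylate synthase TYMS (-0.47, adjusted p 0.10), thymidylate kinase DTYMK (-0.02, adjusted p 0.981) and SAMHD1, which breaks down deoxynucleoside triphosphates (0.03, adjusted p 0.969), did not pass edgeR's test with all 12 libraries. TYMS was lower without R1 -Met+Hcy replicate 3 (adjusted p 0.0161, edgeR), with GC and length trends removed (0.0239) and by DESeq2 (0.018). Beside them, 1 of 17 S phase genes (MCM6, -0.53, adjusted p 0.0489) and 1 of 16 G2 and M genes (CDC20, -0.86, adjusted p 0.0383) fell and none rose, with medians of -0.21 and -0.42. By the same rule, 2.78% of all genes tested fell and 4.25% rose. Without R1 -Met+Hcy replicate 3, 5 of the S phase genes and 7 of the G2 and M genes were lower, and TOP2A was higher. In that setting, 12.5% of all genes were lower and 15.2% higher. In bulk RNA, fewer cells in a phase and less RNA per cell cannot be told apart, and the part of the cell cycle in the values of RRM2 was not tested.

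Salvage gave no gene past the test in HEK293T cells (0 of 7, median -0.24, range -0.93 to 0.40). HPRT1, which salvages hypoxanthine and guanine, came nearest, with 307, 279 and 340 CPM in +Met and 163, 200 and 231 CPM in -Met+Hcy. Its media did not overlap, and its log2 fold change was -0.93 (-1.52 to -0.34, adjusted p 0.0607 by edgeR; 0.0139 without R1 -Met+Hcy replicate 3, 0.0157 by DESeq2). APRT, the enzyme for adenine, had 248, 201 and 226 CPM in +Met and 214, 252 and 250 CPM in -Met+Hcy, with overlap (-0.21, -1.16 to 0.75). UCK1, a kinase of uridine and cytidine, had 32.9, 28.1 and 31.0 CPM in +Met and 52.2, 52.0 and 45 CPM in -Met+Hcy; it was the highest estimate of the group (0.40, adjusted p 0.178) and passed without R1 -Met+Hcy replicate 3 (adjusted p 0.0281), in the HEK293T libraries alone (0.0375) and from column sums (0.70, adjusted p 0.0323). The thymidine kinase TK1 (-0.24), the deoxycytidine kinase DCK (-0.39), UCK2 (-0.38) and the uridine phosphorylase UPP1 (-0.02) had adjusted p of 0.193 to 0.990 by edgeR.

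None of the 4 nucleotide kinases passed in HEK293T cells by edgeR with all 12 libraries, while CMPK1 and NME4 were lower by DESeq2 (adjusted p 0.0395 and 0.0113) and by edgeR without R1 -Met+Hcy replicate 3 (0.00119 and 0.0124), and CMPK1 with GC and length trends removed (0.000745). CMPK1, which phosphorylates the monophosphates of uridine and cytidine, had 39.0, 45.5 and 46.8 CPM in +Met and 24.7, 27.3 and 32.2 CPM in -Met+Hcy, without overlap (-0.93, -1.59 to -0.27, adjusted p 0.0898 by edgeR). NME4, a mitochondrial nucleoside diphosphate kinase, stood at -0.68 (adjusted p 0.0598), NME1, its cytosolic relative, at -0.37 (adjusted p 0.564), and the guanylate kinase GUK1 at 0.00 (adjusted p 1.00). NME1 is close in sequence to NME2 and overlaps a joint transcript of both, so that the split of their counts is uncertain.

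**Figure D3:**
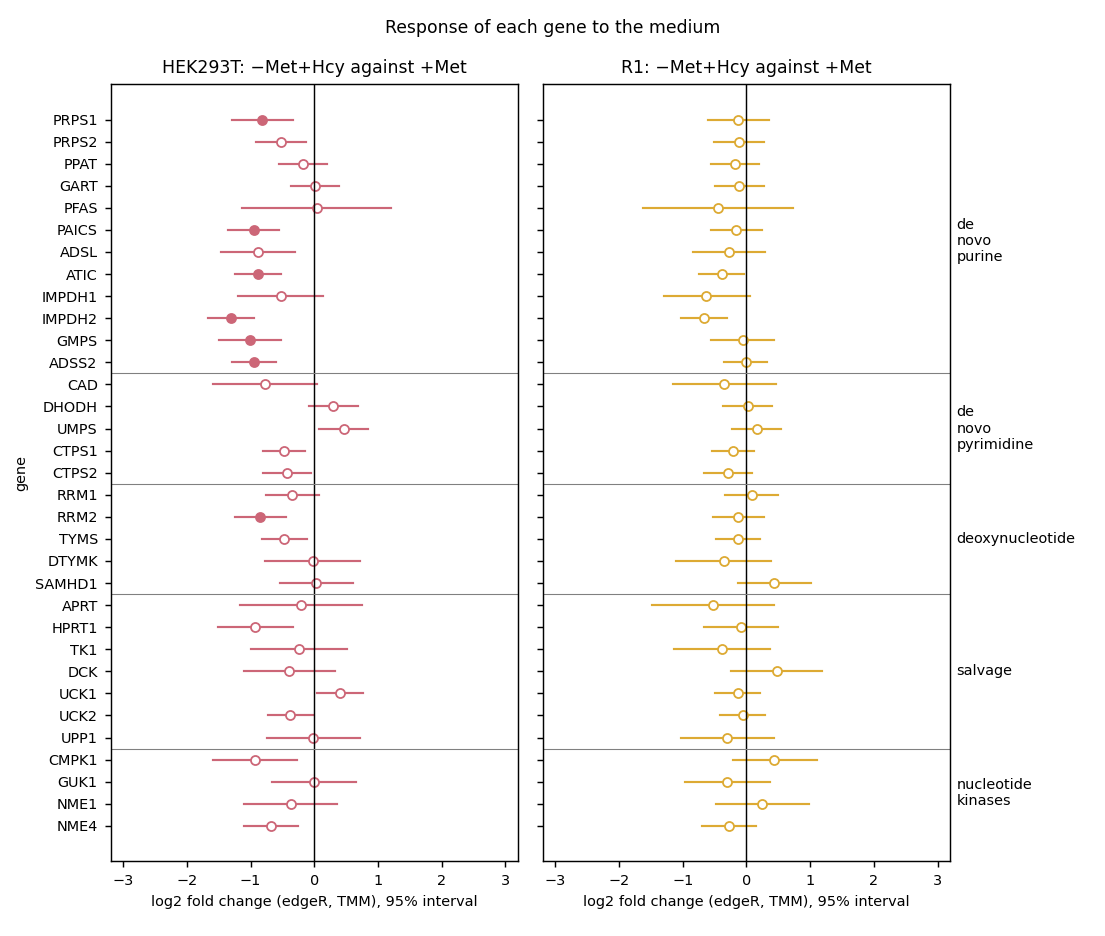
Log2 fold change of each of the 33 genes between -Met+Hcy and +Met, in HEK293T cells on the left and in R1 cells on the right, with 95% intervals; filled points have an adjusted p under 0.05 (edgeR). The 7 filled points are all on the HEK293T side and all below 0, and 6 of them belong to de novo purine synthesis.

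In R1 cells, no gene of the 33 passed edgeR's test between media. At an unadjusted p under 0.05 there were 2, ATIC and IMPDH2, both lower, against 2.11% lower and 5.68% higher over all genes, and DESeq2 called IMPDH2 alone (0.0408% of all genes were lower by DESeq2). Over all genes tested, 0.00583% rose and 0 fell by the same rule, so the test made almost no calls in this clone. The median log2 fold change of the 33 was -0.14 against -0.02 for all genes, and all 12 estimates of de novo purine synthesis were below 0, with a median of -0.17. Summed over the 12 purine genes, R1 cells had 2716 to 2883 CPM in +Met and 2113 to 2362 CPM in -Met+Hcy. The media did not overlap in this sum, as in HEK293T cells.

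IMPDH2 was the lowest in R1 cells too, with 380, 341 and 413 CPM in +Met and 229, 293 and 181 CPM in -Met+Hcy. The media did not overlap, and the log2 fold change was -0.66 (-1.02 to -0.30) with an adjusted p of 0.622 by edgeR and 0.00649 by DESeq2. Without replicate 3 of -Met+Hcy it was -0.58 (adjusted p 0.400, edgeR). ATIC had 270, 232 and 294 CPM in +Met and 186, 236 and 169 CPM in -Met+Hcy, and 1 library of -Met+Hcy lay above the lowest of +Met (-0.39, -0.74 to -0.04).

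ADSS2 varied little in R1 cells, with 110, 111 and 119 CPM in +Met and 102, 116 and 110 CPM in -Met+Hcy. The estimate was -0.01 with an interval of -0.35 to 0.33. The HEK293T estimate of -0.95 lay outside it, but that estimate has an error of its own. The direct test of the difference between the lines did not pass for ADSS2 by edgeR with all 12 libraries. PAICS had 444, 456 and 512 CPM in +Met and 352, 405 and 458 CPM in -Met+Hcy, with overlap (-0.16, -0.55 to 0.24; -0.36 without replicate 3). GMPS had 206, 200 and 221 CPM in +Met, and the 3 libraries of -Met+Hcy spread from 148 to 245 CPM, the highest of them replicate 3. Its log2 fold change was -0.06 with that library and -0.40 (adjusted p 0.568, edgeR) without it. PRPS1 (-0.13), RRM2 (-0.13) and RRM1 (0.08) had intervals that reached from -0.61 to 0.50. Several estimates moved with replicate 3, among which CMPK1 stood at 0.44 and SAMHD1 at 0.44 with it and at -0.08 and 0.00 without it, and APRT at -0.53 and PFAS at -0.45 with it and at -0.08 and 0.06 without it.

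The difference between the responses of the lines, R1 minus HEK293T, passed for 0 of the 33 genes by edgeR. At an unadjusted p under 0.05 there were 9, of which 8 were higher and UCK1 was lower, against 4.62% higher and 5.05% lower over all genes at an unadjusted p under 0.05. By the adjusted p, 0 of all genes tested passed as higher and 0.0583% as lower. ADSS2 by DESeq2, PAICS and CMPK1 once GC and length trends were removed (0.631% of all genes passed as higher there), and ADSS2 without R1 -Met+Hcy replicate 3 were the genes that passed otherwise. The median difference in de novo purine synthesis was 0.55, against 0.40 for the 33 genes and -0.06 for all genes, and from column sums it was 0.22 against -0.38 for all genes.

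For ADSS2 the difference was 0.94 (0.46 to 1.42), with an adjusted p of 0.212 in all 12 libraries, 0.0331 without replicate 3 (0.84; 0.398% of all genes passed as higher there) by edgeR and 0.000569 by DESeq2 (0.524% of all genes higher). GMPS had a difference of 0.95 (0.26 to 1.63; 0.60 without replicate 3), PAICS one of 0.79 (0.23 to 1.35; 0.59 without), RRM2 one of 0.72 (0.15 to 1.28; 0.50 without) and IMPDH2 one of 0.65 (0.14 to 1.15; 0.73 without). Their adjusted p were 0.358 to 0.410 in all 12 libraries and 0.0801 to 0.169 without replicate 3 (edgeR). CMPK1 had the largest difference, 1.37 (0.44 to 2.30), which was 0.85 without that library. By edgeR with all 12 libraries, a fall in HEK293T cells that passed the test is therefore not shown to differ from the value in R1 cells for any of these genes.

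In +Met, 7 of the 33 genes were lower in R1 than in HEK293T cells and 0 higher, against 4.48% lower and 5.69% higher over all genes tested. De novo purine synthesis held 5 of the 7 (PRPS1, PRPS2, PPAT, PAICS and ATIC), and all 12 of its estimates were below 0 (median -0.63, against 0.02 for all genes); from column sums 10 of 12 were below 0 and none of the 12 passed. The other 2 were RRM2 and UCK2. The HEK293T +Met libraries are the reference here and in the response to the medium, so the lists are not independent of each other.

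UCK2 (ENSG00000143179, chr1:165827614-165911618, plus strand), a kinase of uridine and cytidine like UCK1, had 158, 144 and 168 CPM in HEK293T +Met and 99.9, 105 and 92.6 CPM in R1 +Met. The lines did not overlap, and the log2 fold change was -1.01 ± 0.16 (adjusted p 0.00281, edgeR). In -Met+Hcy the libraries of HEK293T cells were at 139, 152 and 152 CPM and those of R1 cells at 105, 93.5 and 80.2 CPM. UCK2 was the gene of the 7 that passed in each of 12 fits without 1 library and under every other setting run, column sums (-0.66, adjusted p 0.0162) and the rule with the fold change included, which 2.95% of all genes passed as lower.

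PPAT (ENSG00000128059, chr4:56393362-56435615, minus strand) had 70.5, 88.2 and 81.0 CPM in R1 +Met, below the 90.6 CPM of the lowest HEK293T +Met library (-0.73 ± 0.17, adjusted p 0.0200, edgeR). PRPS2 (ENSG00000101911, chrX:12791355-12824222, plus strand) had 50.8, 49.1 and 54.2 CPM in HEK293T +Met and 35.3, 43.7 and 35.3 CPM in R1 +Met (-0.78 ± 0.18, adjusted p 0.0179). PAICS was at -0.73 ± 0.18 (adjusted p 0.0263), with no overlap between the lines in CPM. ATIC, at 270, 232 and 294 CPM in R1 against 284 as the lowest in HEK293T cells, overlapped in CPM (-0.62 ± 0.16, adjusted p 0.0329). PRPS1 had 254, 356 and 232 CPM in R1, and replicate 2 lay above the lowest library of HEK293T cells (-0.81 ± 0.22, adjusted p 0.0370). RRM2, at 170, 180 and 166 CPM in R1, lay below all 3 HEK293T libraries (-0.72 ± 0.18, adjusted p 0.0295). All adjusted p are from edgeR.

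These 6 genes lost their call on column sums, where the lines differ by 0.35 less, with log2 fold changes of -0.26 to -0.46 and adjusted p of 0.115 to 0.323. UCK2 was then the only gene of the 33 that was lower and CTPS2 (0.85, adjusted p 0.0117) the only one that was higher, against 2.08% lower and 13.1% higher over all genes. Leaving out HEK293T +Met replicate 3, R1 +Met replicate 1 or R1 +Met replicate 3 left UCK2 alone, and without R1 -Met+Hcy replicate 3 16 of the 33 were lower and CTPS2 was higher, against 15.7% and 17% of all genes. DESeq2 gave 14 lower (7.95% of all genes), and the libraries of the comparison alone 15 lower and CTPS2 higher (13.4% and 16.7%). With GC and length trends removed, 12 were lower and CTPS2 higher (9.79% and 11.3% of all genes), but PPAT (-0.47, adjusted p 0.12) and ATIC (-0.43, adjusted p 0.088) no longer passed. With the replicate number as a block PPAT, PRPS2 and UCK2 were lower (2.59% of all genes).

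CTPS2, a synthetase of cytidine triphosphate, had 23.8, 25.3 and 24.8 CPM in HEK293T +Met and 42.1, 40.7 and 50.4 CPM in R1 +Met. The lines did not overlap, and the estimate on the TMM scale was 0.49 (0.11 to 0.87, adjusted p 0.0960 by edgeR, 0.0263 by DESeq2, where 8.85% of all genes were higher). RRM1 stood at 0.18 (-0.24 to 0.59), with 400, 341 and 421 CPM in R1 against 256, 308 and 243 CPM in HEK293T cells. NME1 had the lowest estimate, -1.12 (-1.85 to -0.38), but its R1 libraries spread from 298 to 616 CPM and it did not pass (adjusted p 0.0562, edgeR). IMPDH2 was at -0.53 (-0.89 to -0.18, adjusted p 0.0595), GMPS at -0.32 (-0.80 to 0.17) and ADSS2 at -0.48 (-0.82 to -0.14, adjusted p 0.0726). Of the cell cycle genes, 3 of 17 S phase genes were lower in R1, against 4.48% of all genes. They were PCNA (-0.94), CCNE1 (-0.65) and UNG (-0.95), with adjusted p of 0.0302 to 0.0353 by edgeR. None of the 16 G2 and M genes passed in either direction. With GC and length trends removed, 4 of the 16 were higher (11.3% of all genes) and 6 S phase genes lower (9.79%). From column sums, 4 of the 16 were higher (13.1%) and 0 S phase genes lower (2.08%).

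For 5 pairs of related enzymes, the share of one gene in the counts of the pair needs no scaling between libraries and was compared by exact two-sided permutation tests, 3 libraries against 3. No such exact permutation test can go below p = 0.1, and 0.214 was the smallest adjusted p of the 15 tests. Shares of counts are not shares of molecules, since the transcripts differ in length. IMPDH2 held 81.3, 81.7 and 82.1% of the counts of IMPDH1 and IMPDH2 in HEK293T +Met and 69.6, 72.3 and 74.4% in -Met+Hcy, apart by -9.54 percentage points (exact permutation p = 0.1). In R1 cells the mean share was 82.9 ± 2.45% in +Met and 83.0 ± 5.99% in -Met+Hcy (SD, n = 3), with replicate 3 at 89.8%. UCK2 held 83.6 ± 0.866% of UCK1 and UCK2 in HEK293T +Met and 74.8 ± 2.24% in -Met+Hcy, and 68.3 ± 2.63% and 69.7 ± 2.23% in R1 cells. Its groups were apart between the media of HEK293T cells (-8.78 points) and between the lines in +Met (-15.3 points). Per kilobase of transcript these differences were -12.4 and -20.4 points.

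RRM2 held 91.9, 91.2 and 88.8% of the counts of RRM2 and RRM2B, the small subunit induced by p53, in HEK293T +Met and 87.0, 85.8 and 83.6% in -Met+Hcy. The media were apart by -5.16 points, and in R1 cells the means were 86 ± 2.56% and 84.7 ± 1.37%. PRPS2 held 11.8 ± 0.496% of PRPS1 and PRPS2 in HEK293T +Met and 14.1 ± 0.972% in -Met+Hcy, apart by 2.34 points, and 12.1% in both media of R1 cells. CTPS2 held 8.89 ± 0.526% of CTPS1 and CTPS2 in HEK293T +Met, 9.11 ± 0.962% in -Met+Hcy and 15.3 ± 2.20% in R1 +Met, where the lines were apart by 6.38 points. Between the media of R1 cells the groups overlapped for all 5 pairs.

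**Figure D4:**
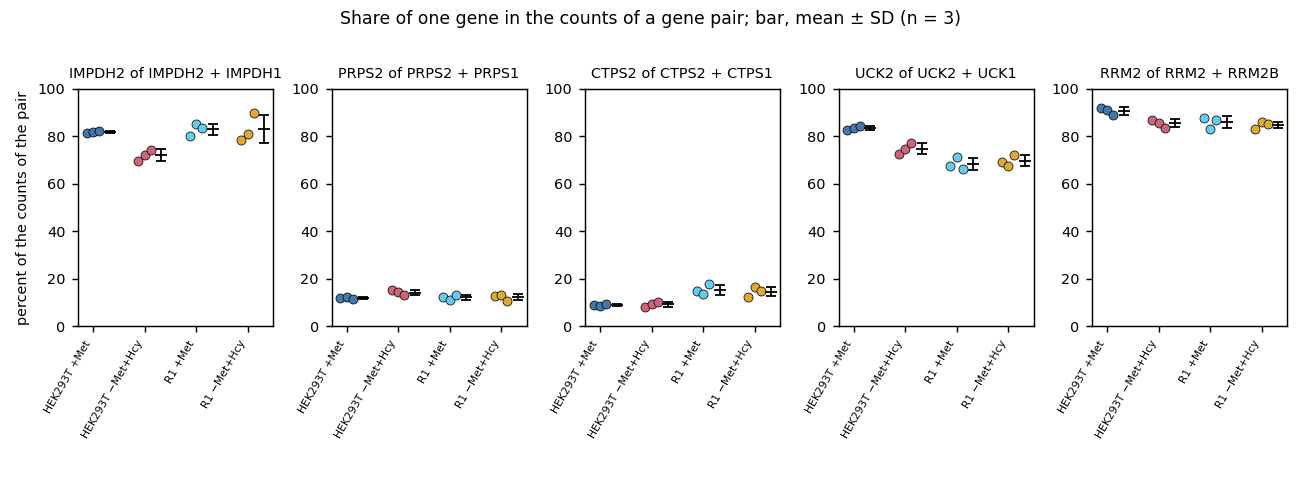
Percent of the counts of a gene pair held by the gene named first, in each of the 12 libraries, with the mean and SD (n = 3) beside the points. In HEK293T cells the IMPDH2, UCK2 and RRM2 shares are lower and the PRPS2 share higher in -Met+Hcy, and R1 cells have a lower UCK2 and a higher CTPS2 share than HEK293T +Met in both media.

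Of 45 further genes of nucleotide metabolism, all tested, 1 rose and 1 fell in HEK293T cells between media. By the same rule, 4.25% of all genes tested rose and 2.78% fell. AMPD3, an adenosine monophosphate deaminase, had 1, 2 and 0 counts in +Met and 19, 18 and 10 counts in -Met+Hcy (adjusted p 0.0289, edgeR), too few for a fold change. AK6, an adenylate kinase of the nucleus, had 30.5, 32.6 and 31.5 CPM in +Met and 20.2, 20.7 and 22.2 CPM in -Met+Hcy (-0.88 ± 0.22, adjusted p 0.0341, edgeR; 0.0690 from column sums). In R1 cells 0 of the 45 passed by edgeR and 0 by DESeq2, and 4 were higher at an unadjusted p under 0.05, as 5.68% of all genes were. For the difference 0 passed by edgeR and 0 by DESeq2, and 1 was higher at an unadjusted p under 0.05, against 4.62% of all genes. The median of the 45 in HEK293T cells was -0.14.

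Between the lines in +Met, 3 of the 45 were higher and 7 lower in R1 (5.69% and 4.48% of all genes, edgeR). Higher were ADSS1 (1.74 ± 0.33, adjusted p 0.00645), the muscle form of the enzyme that ADSS2 encodes, GMPR (1.77 ± 0.46, adjusted p 0.0301), which turns guanosine back into inosine monophosphate, and AMPD3, at 16, 19 and 22 counts in R1 +Met. ADSS1 had 1.51 to 2.07 CPM in HEK293T +Met and 6.63 to 8.37 CPM in R1 +Met. Among those lower were adenosine deaminase ADA (-1.32 ± 0.25, adjusted p 0.00653), which had 30.8 to 40.6 CPM in HEK293T and 15.8 to 20.2 CPM in R1 cells, AK6 (-1.14), NME2 (-1.17), NME6 (-1.04), UPRT (-0.99) and DPYD, which opens the breakdown of uracil and thymine and had 15, 24 and 23 counts in HEK293T +Met and 8, 10 and 2 in R1 +Met. Of those lower, ADA, AK6 and NME2 also passed from column sums.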

How the data were processed

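The authors extracted total RNA after 12 h in the medium and used kallisto 0.48.0 with GRCh38 (the annotation release is not given in the sources used here). The deposited values are estimated counts, added up by the authors per Ensembl gene and made whole, so that rounding changed nothing here. Whether strand was used in counting is not stated; GART, PFAS, CTPS2, TYMS, SAMHD1, UCK1 and UCK2 overlap a gene on the opposite strand, and ADSL, DCK, NME1 and NME4 one on the same strand.

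A gene was tested if its counts in the 12 libraries summed to at least 10. Counts were tested in R 4.3.3 with edgeR 4.0.16 (TMM, quasi-likelihood, a mean per group, 8 residual degrees of freedom, Benjamini-Hochberg over all 17162 genes), and a gene passed at an adjusted p under 0.05. The study used DESeq2, which was run as an alternative (1.42.0). A second rule added an absolute log2 fold change over 1. Other alternatives were RLE scaling, no filter or edgeR's filterByExpr, a block for the replicate number, the libraries of a comparison alone, GC and length trends taken out of each library, and each library left out in turn. Column-sum scaling was chosen after the data were seen. The scripts were tested on simulated data.

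The 33 genes, the further lists and the rule to name all members, with full values for those past a test, were chosen with earlier results of these data known. Positions, lengths and GC content come from GENCODE v44, promoter sequences from RefSeq (GRCh38.p14). Of the 7 further genes lower in R1 +Met, 1 is not reported here.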

Additional observations from a re-analysis of the deposited data

How the results depend on the processing

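For the 7 genes lower in HEK293T -Met+Hcy, the count was 2 with the fold change rule (1.59% of all genes) and 14 by DESeq2 (5.52%). It was 16 with the trend in GC content and length removed (9.3%) and 17 in the libraries of the comparison alone (15.5%). Of the genes higher there, edgeR gave 0. There were 2 in those libraries alone (18.6% of all genes) and 2 from column sums (10.5%). The latter scaling was chosen after the data were seen. For the 7 genes lower in R1 +Met than in HEK293T +Met, the count was 1 with the fold change (2.95% of all genes). By DESeq2 it was 14 (7.95%) and in the libraries alone 15 (13.4%). With the trend removed it was 12 (9.79%), without PPAT and ATIC of the 7. From column sums it was 1 (2.08%) and with the replicate number as a block 3 (2.59%). CTPS2 was the 1 gene higher by DESeq2 (8.85% of all genes), with the trend removed (11.3%), in the libraries alone (16.7%) and from column sums (13.1%). DESeq2 gave 1 lower gene between the media of R1 cells (0.0408% of all genes). It also gave 1 gene with a higher difference between the lines (0.524%), and removal of the trend gave 2 (0.631%). With each library left out in turn, the counts ran from 2 to 17 lower and 0 to 2 higher in HEK293T cells, from 1 to 16 lower and 0 to 1 higher between the lines and from 0 to 1 for the difference, and stayed at 0 in R1 cells. The 17 and the 16 came without R1 -Met+Hcy replicate 3 (12.5% and 15.7% of all genes). The cause of the other changes was not tested. The UCK2 share moved to -12.4 and -20.4 points per kilobase. No label states whether the replicate numbers pair the libraries. Deviations of same-numbered libraries correlated at -0.72 to 0.60 over 18 pairs. These values cannot decide on pairing, since deviations from a mean of 3 libraries also hold the GC trend of each library. The block moved no other count by over 1.5 times. The sign of the 14 calls by edgeR among the 33 genes was kept under all settings run. With 3 libraries a group and R1 -Met+Hcy replicate 3 far from its group, a gene without a call may still have changed.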
